A study of Homo sapiens with 32 samples.

Results

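SOSTDC1 and 9 other genes of the BMP and Wnt pathways were followed through 32 RNAseq libraries of human U2OS and HEK293T cells. The genes were the secreted antagonists SOSTDC1 and DKK1, the ligands BMP2 and BMP4, the targets ID1, ID2 and ID3, the inhibitory SMADs SMAD6 and SMAD7, and the transcription factor RUNX2. They were chosen by name, and all 10 were found among the 60107 genes of the count table through their Ensembl identifiers. The choice was made with the fall of SOSTDC1 in camptothecin-treated U2OS cells already known, so the values of all 10 genes in that comparison are given as a description, without a test. The 10 genes and the lists of related genes beside them were chosen with earlier results of these data known. The adjusted p values printed below, for the genes and for the lists, make no allowance for that choice.

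The study asked how genotoxic stress and loss of the DNA damage kinase ATM change protein aggregation. RNAseq served to see whether transcript levels changed alongside. It also measured how highly the genes of aggregating proteins are expressed and compared chaperone genes between the 2 lines. U2OS is a line from a human osteosarcoma and HEK293T a line from human embryonic kidney. Camptothecin (CPT) traps topoisomerase I on DNA, and DMSO is its solvent. Treated cells received CPT, the ATM inhibitor or DMSO for 24 h and were left to recover for 48 h. Cells with a CRISPR knockout of ATM (ATM KO), derived from picked clones, and wild-type (WT) cells were grown for 72 h. Libraries hold fragments from the 3′ ends of transcripts, and each was counted on 1232674 to 6362433 reads, so that 3 counts correspond to between 0.472 and 2.43 CPM (counts scaled to a total of 1000000 on genes). Nothing in the labels says whether libraries of a group came from separate cultures, while the methods of the study name 4 independent repeats.

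Libraries are named here by the number in their titles and fall into 8 sets of 4. Libraries 26 to 29 are labelled U2OS CPT and 30 to 33 U2OS DMSO. Libraries 22 to 25 are labelled HEK293T DMSO. Libraries 18 to 21 are labelled HEK293T ATM KO and are read here as HEK293T cells with the ATM inhibitor, for which the study describes RNAseq. For 14 of the remaining 16 libraries, the line of the label and the expression profile go against each other. Libraries 10, 12, 14 and 16 are labelled U2OS ATM KO, libraries 11, 13 and 15 U2OS WT and library 17 HEK293T DMSO, and all 8 resembled HEK293T. Libraries 2, 4, 6 and 8 are labelled HEK293T CPT, libraries 3, 5 and 7 HEK293T DMSO and library 1 U2OS WT, and all 8 resembled U2OS.

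The resemblance rests on marker genes. The summed level of 6 U2OS markers was 636 to 1482 CPM in the 16 U2OS-like libraries and 38.4 to 107 CPM in the 16 HEK293T-like ones. The summed level of 5 HEK293T markers was 121 to 231 CPM and 759 to 1532 CPM in the same libraries. The HEK293T markers NEFL and PAX2 and the U2OS marker CAV2 did not separate the lines. CAV2 was lower in the U2OS DMSO libraries than in some HEK293T-like ones. NEFM was 73.3 to 337 CPM in HEK293T-like libraries and at most 1.41 CPM in the others. In all, 14 of the 32 libraries contradict the line of their label. The even-numbered libraries of these 2 blocks were compared with the odd-numbered ones. By number, this sets HEK293T CPT against DMSO in libraries 10 to 17 and U2OS ATM KO against WT in libraries 1 to 8, but the labels do not say so, and no direction for a treatment or genotype is drawn from these blocks. No value for them can be given without the contradicted libraries. The ATM transcript did not pass the test in any of the 4 comparisons within a line (edgeR quasi-likelihood test; for libraries 1 to 8, log2 fold change -0.31, SE 0.17, adjusted p = 0.255), and a 3′ tag can lie outside the part that was edited.

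BMPs are secreted ligands that signal through paired serine/threonine kinase receptors, which phosphorylate SMAD proteins that enter the nucleus. The ID genes are among the best known direct targets of this signal, and their products bind basic helix-loop-helix factors without binding DNA. SMAD6 and SMAD7 are induced by the same signal and inhibit it, while SOSTDC1 binds BMPs outside the cell. SOSTDC1 and DKK1 also bind the Wnt co-receptors LRP5 and LRP6. In bone, BMP and Wnt signals act on osteoblasts, for which RUNX2 is the defining transcription factor, and U2OS derives from a bone tumour.

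The SMAD-binding sequence in regulatory DNA is known from 3 short motifs. GTCTAGAC is the palindromic SMAD box, GGCGCC a GC-rich motif bound by BMP-specific SMADs, and CAGAC the short SMAD-binding element. The first 2 read the same on both strands, the third was searched on both, and none of the 3 overlaps another by its letters in these windows. RefSeq start sites of GRCh38.p14 were at hand for 8 of the 10 genes, in 13 windows that run from 250 bases before the start site to 50 after it. GTCTAGAC stood in 1 of the 13 windows, that of SMAD6, 12 bases before the start site, and in 0.202% of all 35116 RefSeq windows of that length. GGCGCC stood in 2 of the 13 windows, of BMP4 and RUNX2, and in 19.2% of all windows. The element CAGAC stood on either strand of 7 of the 13 windows, of BMP4, DKK1, ID3 and SMAD7, and in 45.3% of all windows. A match is a run of letters and not a bound site. The 250 bases before the start site are shown for SMAD6, which holds the palindrome, and for ID3 and ID1, the ID genes that rose in libraries 10 to 17. Motif letters are in capitals. The SMAD6 stretch is chr15:66701986-66702235 on the plus strand, that of ID3 is chr1:23559502-23559751 on the minus strand, and that of ID1 is chr20:31605039-31605288 on the plus strand.
SMAD6: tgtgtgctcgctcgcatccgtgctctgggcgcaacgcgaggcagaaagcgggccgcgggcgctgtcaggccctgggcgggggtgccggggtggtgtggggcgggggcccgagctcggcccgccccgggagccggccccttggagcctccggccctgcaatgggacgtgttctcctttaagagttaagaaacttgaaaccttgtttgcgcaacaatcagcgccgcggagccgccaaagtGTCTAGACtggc
ID3: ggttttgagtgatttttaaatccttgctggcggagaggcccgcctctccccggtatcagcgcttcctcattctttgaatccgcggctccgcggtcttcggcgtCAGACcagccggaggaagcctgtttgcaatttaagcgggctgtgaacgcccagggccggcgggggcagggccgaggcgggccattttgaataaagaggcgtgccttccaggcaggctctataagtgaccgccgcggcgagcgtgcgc
ID1: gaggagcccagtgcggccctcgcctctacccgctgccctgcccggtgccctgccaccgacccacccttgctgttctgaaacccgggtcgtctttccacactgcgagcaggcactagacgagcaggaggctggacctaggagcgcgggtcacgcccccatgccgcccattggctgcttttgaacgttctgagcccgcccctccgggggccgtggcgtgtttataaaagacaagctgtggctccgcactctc
In ID3 the capitals are CAGAC, 147 bases before the start site, and the ID1 stretch holds none of the motifs.

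SOSTDC1 was close to lost from U2OS cells after CPT. The 4 CPT libraries held 0, 1, 2 and 1 counts of SOSTDC1 (ENSG00000171243), or 0, 0.310, 0.693 and 0.312 CPM. The 4 DMSO libraries held 84, 84, 76 and 87 counts, or 25.9, 28.9, 22.3 and 20.9 CPM. The groups did not overlap. Summed over libraries, the level was 76.7-fold lower with CPT (95% interval 29.7 to 283, exact, for counting error only), and the fitted log2 fold change was -5.95 (SE 0.35). Every SE in this text is computed back from the test statistic of the fit. For SOSTDC1 it spans less than the counting interval. DKK1, the other secreted antagonist, was close to undetected in U2OS cells, with 1, 3, 1 and 0 counts in the CPT libraries and 0 in each of the DMSO libraries. It did not pass the filter of more than 1 count in at least 2 libraries.

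BMP4 was lower in the CPT libraries, while BMP2 overlapped. BMP4 was 181, 185, 175 and 210 CPM with CPT and 452, 709, 708 and 808 CPM with DMSO, and the groups did not overlap (log2 fold change -1.68, SE 0.15). BMP2 was 17.7 to 20.4 CPM with CPT and 15.4 to 29.6 CPM with DMSO, and the groups overlapped (log2 fold change -0.05, SE 0.17). Both are ligands of the same receptors.

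The 3 ID genes were all lower on average in the CPT libraries. ID2 was 7.06, 6.82, 5.54 and 6.55 CPM with CPT and 16.7, 16.9, 18.5 and 16.6 CPM with DMSO (log2 fold change -1.22, SE 0.19). ID1 was 82.4, 46.8, 58.5 and 60.5 CPM with CPT and 158, 116, 110 and 91.6 CPM with DMSO, without overlap (log2 fold change -0.75, SE 0.14). ID3 was 49.1, 26.7, 22.5 and 21.5 CPM with CPT and 72.2, 69.2, 57.4 and 46.9 CPM with DMSO, and the groups met at library 26 (log2 fold change -0.84, SE 0.18). Without library 26 the ID3 difference was -1.19 and passed the cutoff of 1 on the log2 scale.

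The inhibitory SMADs parted. SMAD6 was 10.6, 9.93, 7.96 and 9.67 CPM with CPT and 27.5, 26.8, 22.3 and 19.9 CPM with DMSO, without overlap (log2 fold change -1.15, SE 0.17). SMAD7 was 13.9 to 19.3 CPM with CPT and 14.1 to 19.5 CPM with DMSO, with near-identical ranges (log2 fold change 0.27, SE 0.17). RUNX2 likewise overlapped, at 15.6 to 21.2 CPM with CPT and 15.4 to 22 CPM with DMSO (log2 fold change 0.21, SE 0.17).

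**Figure D1:**
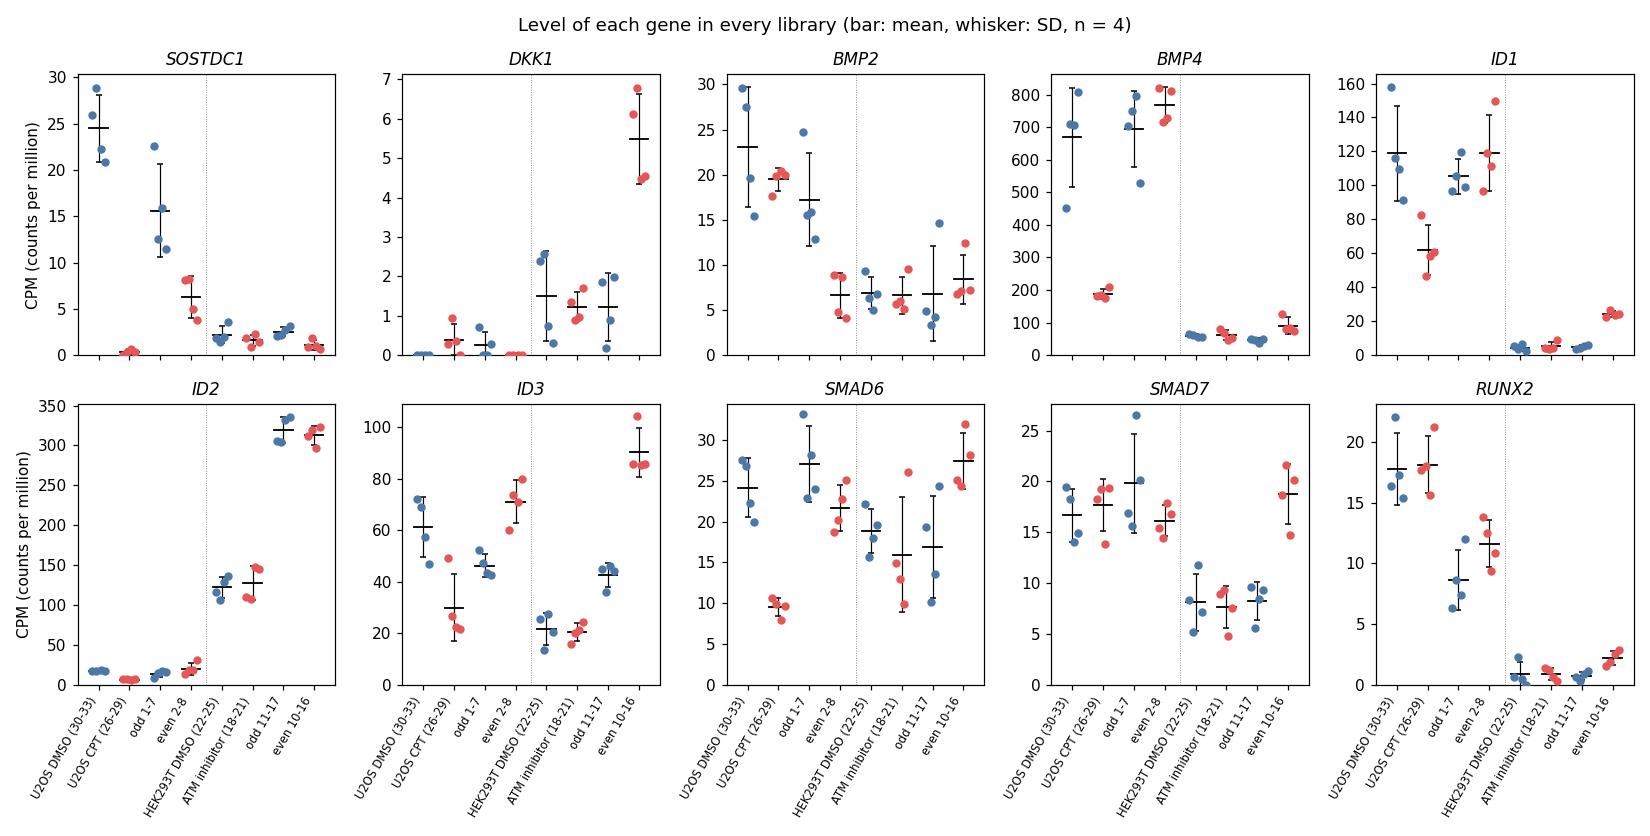
CPM of each gene (vertical axis, from 0, scaled per gene) in the 4 libraries of each of the 8 sets (horizontal axis). Points are libraries, bars are means and whiskers SD (n = 4), and sets left of the dotted line are U2OS-like; SOSTDC1 lies at 20.9 to 28.9 CPM in U2OS DMSO and at no more than 0.693 CPM in U2OS CPT.

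Counted over the 10 genes, 9 passed the filter in U2OS cells, and the rule that calls genes throughout (over 1 on the log2 scale in either direction, with an adjusted p under 0.05) marked 4 as lower (SOSTDC1, BMP4, ID2 and SMAD6) and 0 as higher. Over all 19080 genes tested, 5.50% passed in that direction and 7.97% in the other. In 5 of the 10 genes (the same 4 and ID1) every CPT library lay under every DMSO library, as in 20.1% of all genes. Since the genes were chosen with this comparison known, these counts are a description and no test of the genes, and nothing is read from them. The median log2 fold change was -0.84 over the 9 genes and 0.01 over all genes. These changes are relative to the TMM scaling, and with library size alone the median of all genes lay at -0.16 in this comparison. The summed U2OS markers rose from 636 to 745 CPM with DMSO to 1346 to 1482 CPM with CPT. In CPM, that rise was largest in CD44, at 60.5 to 70.5 CPM with DMSO and 370 to 396 CPM with CPT. Next came CAV1 (54.2 to 75.0 and 174 to 265 CPM) and S100A6 (106 to 168 and 271 to 325 CPM). ANXA1 and CAV2 were also higher without overlap, while AXL overlapped (213 to 278 and 232 to 269 CPM). The summed HEK293T markers went from 207 to 229 CPM down to 176 to 193 CPM. That fall was mostly in NEFL, which did not separate the lines, at 155 to 180 CPM with DMSO and 129 to 144 CPM with CPT. LIN28B was also lower with CPT, at 13.2 to 18.5 CPM and 7.65 to 12.4 CPM. CKB (27.2 to 35.5 and 30.1 to 39.6 CPM) and PAX2 (1.72 to 4.1 and 3.12 to 4.71 CPM) overlapped. NEFM was at no more than 0.344 CPM. The part of these markers in the result was not tested. In such bulk samples, fewer cells that express a gene and less RNA per cell cannot be told apart.

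Around these genes, the list with the median farthest from 0 in U2OS cells with CPT was that of Wnt targets, 4 of which fell and 0 rose among the 7 tested. RNF43, a ligase that removes Wnt receptors from the membrane, fell from 101 ± 8.34 to 6.80 ± 2.73 CPM (mean ± SD, n = 4; log2 fold change -3.73, SE 0.18, adjusted p = 9.01e-17, edgeR quasi-likelihood test). NKD1, an intracellular Wnt antagonist, fell from 22.5 ± 1.83 to 4.92 ± 1.13 CPM (adjusted p = 1.61e-09), and NOTUM, which strips the lipid from Wnt ligands, from 24.8 ± 4.84 to 5.89 ± 1.73 CPM (adjusted p = 9.99e-09). These 3 are feedback inhibitors of the Wnt pathway. The median of the list was -1.76, against 0.01 over all genes. LGR5, the remaining call, was a low gene at 2.93 ± 3.07 CPM with DMSO, and its call was lost on leaving out library 27, 28, 29, 30 or 31 (log2 fold change -2.43 to -0.77).

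Among Wnt antagonists and receptors, 2 of 9 tested genes fell and 1 rose. DKK2, a relative of DKK1, fell by 2.61 on the log2 scale (SE 0.34, adjusted p = 3.83e-07), from 8.34 ± 2.3 to 1.18 ± 0.292 CPM. SFRP1, which binds Wnt ligands, fell by 1.53 (SE 0.13, adjusted p = 9.50e-11), from 170 ± 26.2 to 52.2 ± 9.84 CPM. The rise of SFRP4 (log2 fold change 1.22, adjusted p = 0.0343, edgeR quasi-likelihood test) was lost on leaving out library 27, 28, 29, 32 or 33 (0.97 to 1.5). It was also lost with DESeq2, with all 32 libraries in one fit and with library size alone.

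Of 5 other BMP ligands tested, 2 fell and 0 rose. BMP6 fell from 4.50 ± 2.72 to 0.605 ± 0.543 CPM (log2 fold change -2.57, SE 0.54, adjusted p = 0.000345). BMP3 had 9 counts in the DMSO libraries and 0 in the CPT libraries. With the CPT libraries set to a floor of 3 counts over the group, BMP3 was 2.78-fold lower. That ratio leaves out counting error in the 9 counts. The BMP3 call was lost with DESeq2 and on leaving out library 26, 27, 29, 31 or 33 (fitted log2 fold change -4.35 to -4.13). The receptors ACVR2B (log2 fold change -1.62, SE 0.17, adjusted p = 3.67e-09) and BMPR1A (-1.1, SE 0.15, adjusted p = 5.31e-07) fell among 10 tested and 0 rose. No call was made among the 9 secreted BMP antagonists, the 12 SMADs and SMAD regulators or the 4 listed BMP targets tested, whose medians were -0.20, -0.14 and -0.07.

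Ligands of the TGF-β family beyond the BMPs moved in both directions. INHBA, the subunit of activin A, rose from 319 ± 36.7 to 979 ± 58.0 CPM (log2 fold change 1.78, SE 0.12, adjusted p = 2.46e-13) and TGFB2 from 202 ± 28.8 to 487 ± 80.3 CPM (1.45, SE 0.12, adjusted p = 2.56e-11), whereas TGFB3 fell from 11.6 ± 1.12 to 4.09 ± 0.464 CPM (-1.32, SE 0.23, adjusted p = 2.53e-05). The other 7 genes of that list did not pass. Of 8 osteoblast genes tested, TNFRSF11B, the decoy receptor osteoprotegerin, fell (-1.07, SE 0.16, adjusted p = 5.28e-06), a call lost on leaving out library 26 or 31 (-1.19 to -0.87). Over all listed genes tested, 3 of 74 rose (4.05%) and 12 fell (16.2%).

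In libraries 10 to 17, which resembled HEK293T, most of the 10 genes were higher in the even-numbered libraries and SOSTDC1 was lower. All 10 passed the filter. 5 rose (DKK1, ID1, ID3, SMAD7 and RUNX2) against 9.52% of the 19464 genes tested, and SOSTDC1 fell against 4.45%. In 7 genes every even library lay over every odd one, as in 16.4% of all genes, and in SOSTDC1 every even library lay under every odd one, as in 14.6%. The median log2 fold change was 1.02 over the 10 genes and 0.04 over all genes.

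ID1 differed most by its test. It was 22.7, 26.5, 23.4 and 24.2 CPM in libraries 10, 12, 14 and 16 and 3.71, 4.06, 5.56 and 6.21 CPM in libraries 11, 13, 15 and 17 (log2 fold change 2.3, SE 0.19, adjusted p = 5.02e-09, edgeR quasi-likelihood test). ID3 was 85.7, 105, 85.4 and 85.8 CPM against 45.1, 35.9, 46.0 and 44.1 CPM (1.06, SE 0.12, adjusted p = 4.95e-07). Without library 12 the ID3 difference was 0.99, just under the cutoff of 1. ID2 ran from 296 to 323 CPM in even libraries and from 304 to 335 CPM in odd ones, and did not pass (-0.05, SE 0.10, adjusted p = 0.726). ID1 and ID3 thus rose in these libraries, while ID2 overlapped.

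Of the inhibitory SMADs, SMAD7 rose and SMAD6 stayed under the cutoff. SMAD7 was 18.7, 21.6, 14.7 and 20.1 CPM in the even and 9.60, 5.58, 8.44 and 9.31 CPM in the odd libraries (log2 fold change 1.18, SE 0.19, adjusted p = 5.22e-05). SMAD6, with the palindromic SMAD box in its promoter window, was 24.4 to 32 CPM against 10.2 to 24.4 CPM. Its difference of 0.69 (SE 0.20, adjusted p = 0.00891) stood under the cutoff on fold change. RUNX2 was low in these libraries, at 1.53, 1.85, 2.56 and 2.83 CPM against 0.674, 0.338, 0.889 and 1.11 CPM (1.59, SE 0.44, adjusted p = 0.00735), on 37 and 15 counts.

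Of the ligands, BMP4 was 128, 79.0, 84.1 and 72.8 CPM in the even and 49.0, 47.6, 36 and 48.5 CPM in the odd libraries. The groups did not overlap, and the difference of 0.97 (SE 0.16, adjusted p = 6.09e-05) lay just under the cutoff, which it passed without library 11, 12, 13, 14 or 16 (1.01 to 1.08). BMP2 ran from 6.74 to 12.5 CPM and from 3.38 to 14.6 CPM and did not pass (0.31, SE 0.34, adjusted p = 0.515).

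The 2 secreted antagonists moved in opposite directions. DKK1 was 6.12, 6.79, 4.48 and 4.56 CPM in the even and 1.85, 0.169, 0.889 and 2.0 CPM in the odd libraries, on 85 and 25 counts (log2 fold change 2.12, SE 0.39, adjusted p = 0.000181). SOSTDC1 was 0.919, 1.85, 0.960 and 0.629 CPM against 2.02, 2.20, 2.67 and 3.10 CPM, on 16 and 51 counts (-1.28, SE 0.41, adjusted p = 0.0182). The SOSTDC1 call was lost without library 16 (-0.98, adjusted p = 0.0939) and with DESeq2 (-1.24, adjusted p = 0.0817).

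U2OS markers moved with these differences. Their summed level was 84.3 to 107 CPM in even and 38.4 to 54.1 CPM in odd libraries, with ANXA1 at 29.3 to 39.6 CPM against 3.77 to 4.91 CPM and CAV1 at 36.4 to 43.5 CPM against 16.1 to 25.3 CPM, both without overlap. CAV2 overlapped, at 17.6 to 23.4 CPM against 16.7 to 24.2 CPM. The other 3 markers were near 0 on both sides, with S100A6 at 0 to 0.612 against 0 to 0.222 CPM, AXL at 0.612 to 1.26 against 0.337 to 1.33 CPM and CD44 at 0.309 to 1.22 against 0 to 0.444 CPM. The U2OS DMSO libraries held at least 106, 213 and 60.5 CPM of these 3, and at least 140 and 54.2 CPM of ANXA1 and CAV1. For CAV2 the order was reversed, with 11 to 15.2 CPM in U2OS DMSO, under every even and every odd library here. The summed HEK293T markers were 969 to 1286 CPM in even and 1161 to 1532 CPM in odd libraries. Their part in the result was not tested.

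**Figure D2:**
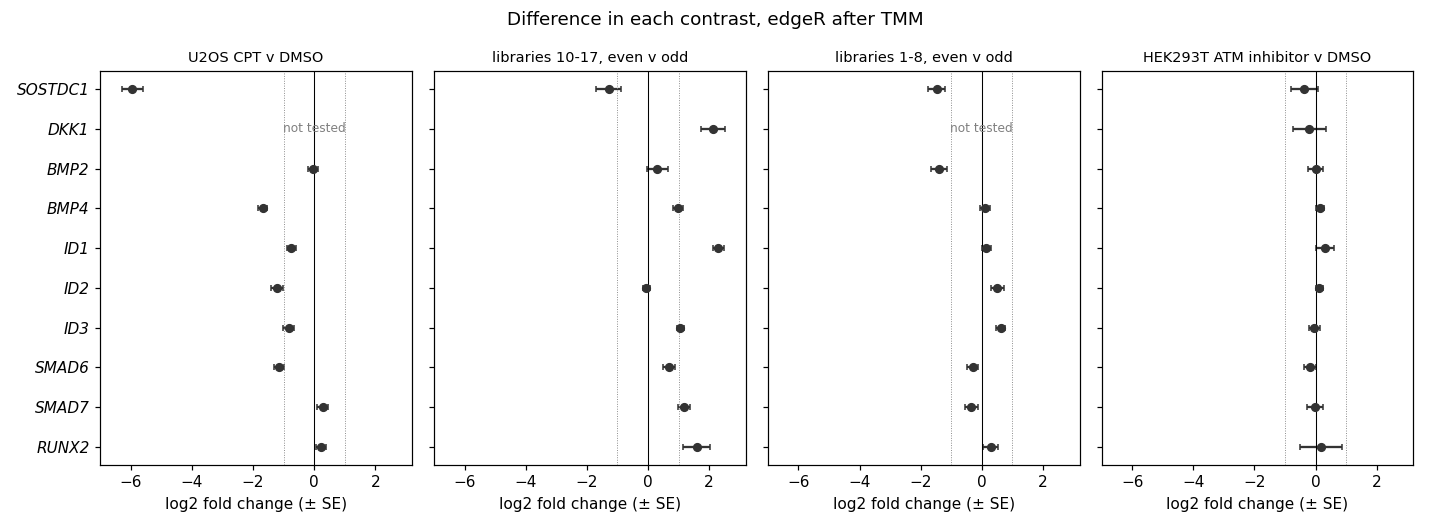
Fitted log2 fold change of each gene (horizontal axis, with SE computed back from the test statistic, 4 libraries a side) in the 4 comparisons within a line, with dotted lines at -1 and 1. SOSTDC1 lies at -5.95, -1.28, -1.48 and -0.37 from left to right, and ID1 at -0.75, 2.3, 0.15 and 0.31; DKK1 was not tested where its counts were too low.

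Of 7 listed BMP targets tested in libraries 10 to 17, 3 rose and 0 fell, with a median of 1.1. MSX2, a homeobox factor of limb and skull, rose from 24.5 ± 3.83 to 136 ± 16 CPM (mean ± SD, n = 4; log2 fold change 2.45, SE 0.13, adjusted p = 9.67e-12, edgeR quasi-likelihood test). MSX1, its close relative, rose from 59.1 ± 8.98 to 129 ± 13.6 CPM (adjusted p = 3.05e-07), and ATOH8, a basic helix-loop-helix factor, from 0.657 ± 0.163 to 3.49 ± 1.38 CPM (adjusted p = 0.00012). ID4 (log2 fold change 0.30), DLX3 (1.11) and DLX5 (0.66) did not pass (adjusted p = 0.135, 0.0757 and 0.0784). HEY1, a transcriptional repressor, was lower in the even libraries, at 106 ± 7.98 against 173 ± 15.3 CPM, with a difference of -0.73 (SE 0.11, adjusted p = 1.97e-05) under the cutoff on fold change. BAMBI, a decoy receptor that dampens BMP and TGF-β signals, was the only call among 12 SMADs and SMAD regulators and rose from 13.5 ± 5.11 to 47.1 ± 4.88 CPM (adjusted p = 1.73e-07).

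Other ligands and secreted antagonists rose as well. BMP5 had 71 counts in the even and 1 in the odd libraries, a 92.6-fold ratio (95% interval 16.1 to 3708, exact, for counting error only), and BMP3 rose by 1.89 (SE 0.39, adjusted p = 0.000548), so that 2 of 7 ligands rose and 0 fell. Of 10 secreted BMP antagonists tested, 2 rose and 0 fell: BMPER from 0.768 ± 0.114 to 3.24 ± 0.399 CPM (adjusted p = 0.000241) and the activin and BMP binder follistatin (FST) from 2.83 ± 1.1 to 10.6 ± 1.85 CPM (adjusted p = 8.46e-06). Of 9 receptors, ACVR2B fell (-1.01, SE 0.15, adjusted p = 2.27e-05), close enough to the cutoff that it was lost without library 11, 14, 16 or 17 (-1.15 to -0.90). The ACVR2B call was also lost with RLE normalization, DESeq2 or library size alone.

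Among 10 Wnt antagonists and receptors tested, 2 rose and 0 fell. DKK2 rose from 1.62 ± 0.461 to 6.11 ± 1.37 CPM (log2 fold change 1.87, SE 0.30, adjusted p = 4.14e-05), and FRZB, on 16 and 3 counts, passed but was lost without library 16 (2.23 to 2.79). Of 8 Wnt targets only LGR5 rose (1.22, SE 0.37, adjusted p = 0.0138), a call lost without library 10 (1.02 to 1.40). The activin subunits INHBB (1.53, SE 0.21, adjusted p = 7.87e-06) and INHBE (-3.79, SE 0.61, adjusted p = 4.32e-05) passed in opposite directions. Osteoblast genes gave 2 rises and 1 fall among 6 tested, each on few counts and each lost on leaving out a library: SPP1, on 14 and 2 counts, without library 16 (2.43 to 3.31), PHEX without library 10, 11, 14, 16 or 17 (0.84 to 1.57) and ALPL without library 11, 12 or 16 (-1.25 to -0.73). Over all listed genes tested, 14 of 79 rose (17.7%) and 3 fell (3.80%).

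**Figure D3:**
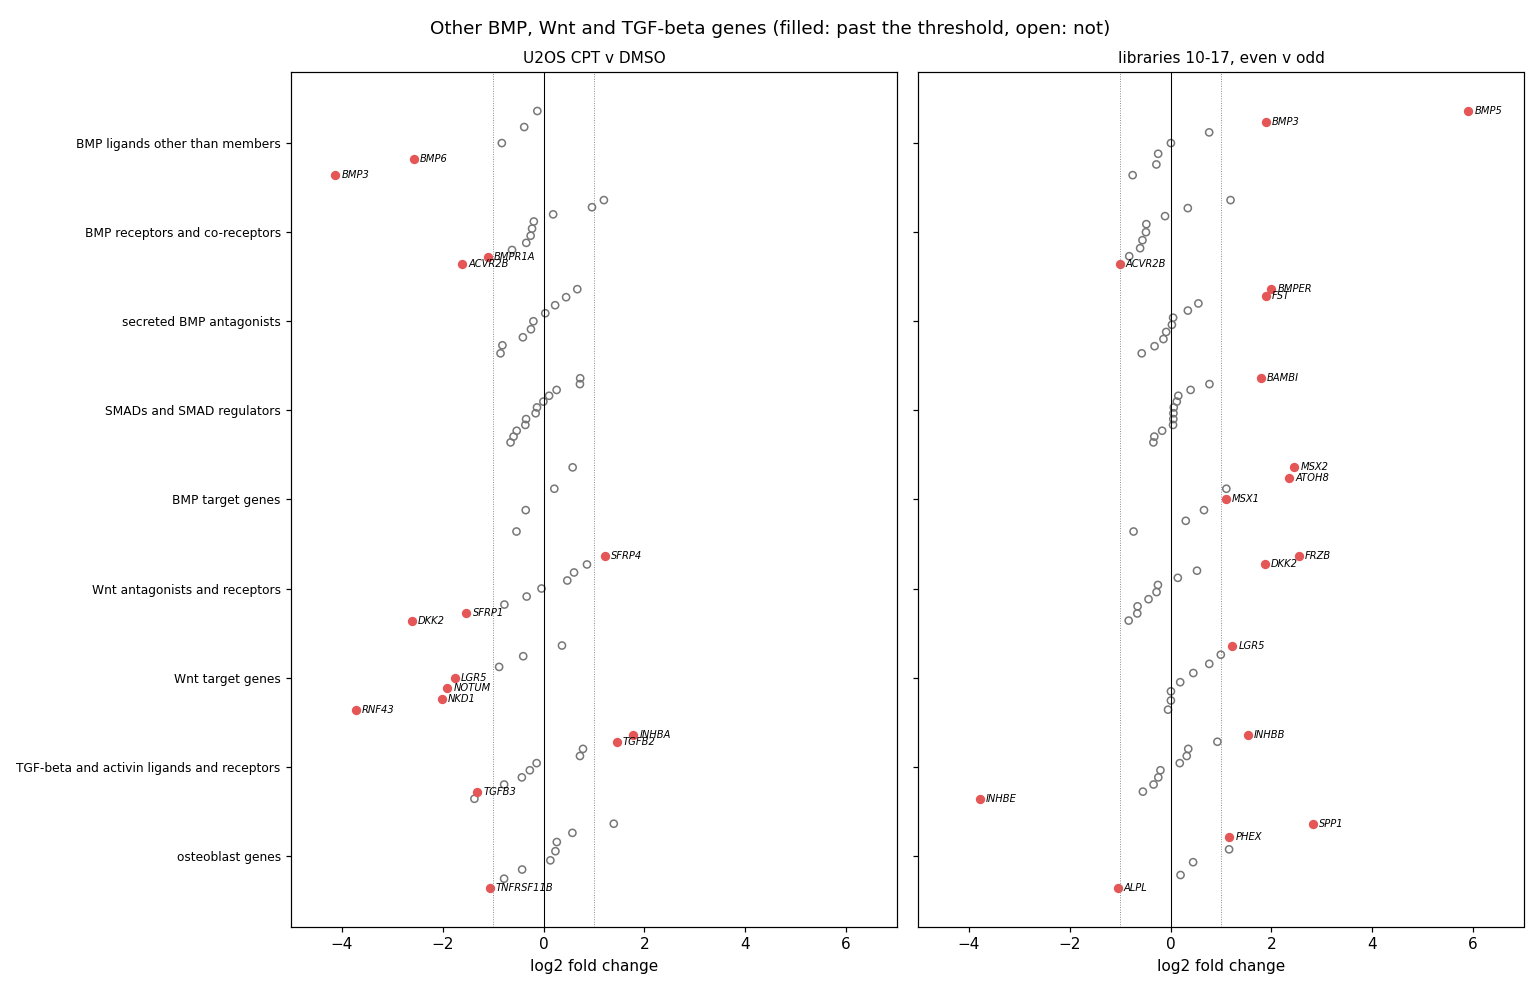
Log2 fold change (horizontal axis) of each tested gene of 9 pathway lists (vertical axis, 1 row of points a list), in U2OS CPT against DMSO on the left and in libraries 10 to 17, even against odd, on the right. Filled and named genes passed the threshold (beyond 1 in either direction, adjusted p under 0.05); Wnt targets gave 4 falls on the left, and BMP targets 3 rises on the right, and the BMP3 and BMP5 points at the far ends rest on 9 counts against 0 and on 71 counts against 1.

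With the ATM inhibitor, none of the 10 genes passed in HEK293T cells. The same was true of all 18413 genes tested with edgeR (0%) and of the 77 listed genes tested. DESeq2 and the likelihood ratio test of edgeR likewise called 0 of the 10. At an unadjusted p under 0.05, 5.53% of all genes passed and 0 of the 10 did. In all 10 genes the inhibitor and DMSO libraries overlapped, and the log2 fold changes ran from -0.37 (SOSTDC1, SE 0.44) to 0.31 (ID1, SE 0.31). SOSTDC1 was 1.90, 0.904, 2.24 and 1.37 CPM in libraries 18 to 21 and 1.8, 1.43, 2.0 and 3.56 CPM in libraries 22 to 25. ID1 was 4.07, 3.62, 4.47 and 8.91 CPM against 5.09, 3.43, 6.26 and 2.37 CPM, and ID3 15.7 to 24.3 CPM against 13.4 to 27.3 CPM. BMP4 was 47.6 to 81.1 CPM against 55.1 to 63.7 CPM. The remaining genes overlapped in the same way, with adjusted p of 0.947 or more for all 10 (edgeR quasi-likelihood test). ID2 was 108 to 147 CPM against 107 to 136 CPM, BMP2 5.11 to 9.59 CPM against 5.01 to 9.27 CPM and DKK1 0.904 to 1.71 CPM against 0.296 to 2.57 CPM. SMAD6 was 9.90 to 26 CPM against 15.7 to 22.1 CPM, SMAD7 4.79 to 9.34 CPM against 5.14 to 11.8 CPM and RUNX2 0.343 to 1.36 CPM against 0 to 2.29 CPM. For SOSTDC1, DKK1 and RUNX2, which had 12 counts or fewer in each of these libraries, only large differences were detectable at this depth.

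The difference between the 2 HEK293T-like comparisons was tested directly over 20849 genes, of which 7.27% passed. It passed for 4 of the 10 genes, and in each the difference was larger in libraries 10 to 17. For ID1 the log2 fold changes differed by 1.99 (SE 0.37, adjusted p = 0.000171), for ID3 by 1.09 (SE 0.21, adjusted p = 0.00034), for SMAD7 by 1.2 (SE 0.32, adjusted p = 0.00776) and for DKK1 by 2.32 (SE 0.70, adjusted p = 0.0191). ID1 kept its call without each library in turn. DKK1 lost it without library 22 (2.03) or 23 (1.92), ID3 without library 18 (0.99) or 24 (0.97), and SMAD7 without library 24 (0.96), whereas SMAD6 (0.88, adjusted p = 0.037) passed the cutoff without library 17 (1.12) or 21 (1.19). Without library 24, 2 of the 10 genes passed. SOSTDC1 did not pass (-0.91, SE 0.60, adjusted p = 0.333).

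In libraries 1 to 8, which resembled U2OS, SOSTDC1 and BMP2 fell and the ID genes stayed under the cutoff. Of the 9 genes tested, 2 fell against 2.44% of the 18591 genes tested and 0 rose against 2.80%. The median log2 fold change was 0.10 over the 9 genes and 0.04 over all genes. DKK1 was not tested, with 0 counts in each even library and 1, 0, 0 and 1 in the odd ones.

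SOSTDC1 was 8.11, 8.18, 5.03 and 3.78 CPM in libraries 2, 4, 6 and 8 and 22.6, 12.5, 15.9 and 11.5 CPM in libraries 1, 3, 5 and 7 (log2 fold change -1.48, SE 0.28, adjusted p = 8.76e-05, edgeR quasi-likelihood test). The groups did not overlap, as in 6.02% of all genes in that direction. BMP2 was 8.92, 4.81, 8.68 and 4.13 CPM against 24.7, 15.6, 15.9 and 12.8 CPM, also without overlap (-1.40, SE 0.27, adjusted p = 9.05e-05). BMP4, which was lower in the U2OS CPT libraries, was here 715 to 819 CPM against 529 to 794 CPM (0.10, SE 0.16, adjusted p = 0.754). BMP2 without BMP4 thus stood apart here and BMP4 without BMP2 in the CPT libraries, and the difference between the comparisons was not tested.

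ID3 was the only gene of the 10 with every even library over every odd one, as in 7.61% of all genes. It was 60, 73.6, 71.0 and 79.9 CPM against 52.2, 47.2, 43.3 and 42.5 CPM (log2 fold change 0.61, SE 0.16, adjusted p = 0.0047), under the cutoff on fold change. ID1 was 96.5 to 150 CPM against 96.7 to 120 CPM (0.15, SE 0.15, adjusted p = 0.599). ID2 (0.51, adjusted p = 0.102), SMAD6 (-0.30, adjusted p = 0.312), SMAD7 (-0.34, adjusted p = 0.288) and RUNX2 (0.29, adjusted p = 0.513) did not pass. The summed U2OS markers were 861 to 1194 CPM in even and 678 to 909 CPM in odd libraries and the summed HEK293T markers 123 to 231 CPM and 121 to 192 CPM, with NEFM at most 1.41 CPM.

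Among the listed genes in libraries 1 to 8, 2 of 72 rose (2.78%, against 2.80% of all genes) and 9 fell (12.5%, against 2.44%). ENG, the co-receptor endoglin, fell from 6.68 ± 0.843 to 0.375 ± 0.361 CPM (mean ± SD, n = 4; log2 fold change -4.20, SE 0.52, adjusted p = 9.80e-09), on 72 and 5 counts. NOG, the BMP antagonist noggin, fell from 468 ± 78 to 198 ± 19.3 CPM (-1.27, SE 0.16, adjusted p = 8.21e-09). INHBA, which rose with CPT in U2OS cells, fell from 401 ± 73.1 to 102 ± 16.6 CPM (-2.03, SE 0.16, adjusted p = 9.21e-15). BMP6 (-2.21, adjusted p = 3.29e-05), LGR5 (-1.51, adjusted p = 0.000646) and the bone matrix collagen COL1A1 (-1.29, adjusted p = 1.34e-07) also fell. These 6 calls held on leaving out each library in turn.

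The other 5 listed genes called in libraries 1 to 8 depended on single libraries. The falls of GDF7 (-1.14) without library 6, 7 or 8 (-1.37 to -0.96), of SKIL (-1.03) without library 4 (-1.1 to -0.98) and of TNFRSF11B (-1.05) without library 1 or 8 (-1.27 to -0.80) were lost. So were the rises of ATOH8 (2.31, on 23 and 3 counts) without library 1, 2, 3, 6, 7 or 8 (2.02 to 3.14) and of INHBB, on 10 counts against 0, without library 1, 2, 3, 5, 6, 7 or 8 (4.11 to 4.45). With the odd libraries set to a floor of 3 counts over the group, INHBB was 2.47-fold higher. That ratio leaves out counting error in the 10 counts.

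The DMSO-treated libraries of the 2 lines differed in level for most of these genes. The U2OS DMSO libraries are also the controls of the CPT comparison and the HEK293T DMSO libraries those of the ATM inhibitor comparison, and the levels are given as a description. By log2 fold change and adjusted p, 7 of the 10 genes were higher in U2OS, against 21.8% of the 19739 genes tested, and 2 were lower, against 18.1%. With library size alone, the median of all genes lay at -0.21 in this comparison.

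ID1 was 119 ± 28 CPM in U2OS DMSO and 4.29 ± 1.73 CPM in HEK293T DMSO libraries (mean ± SD, n = 4; log2 fold change 4.97, SE 0.19). RUNX2 was 17.8 ± 2.94 against 0.846 ± 0.994 CPM (4.55, SE 0.34), BMP4 669 ± 152 against 59.4 ± 4.09 CPM (3.73, SE 0.15) and SOSTDC1 24.5 ± 3.62 against 2.20 ± 0.937 CPM (3.68, SE 0.24). BMP2 (1.96), ID3 (1.71) and SMAD7 (1.24) were higher by less. These gaps rest on 1 pair of control sets. In the odd libraries 1 to 7 and 11 to 17, ID3 was 42.5 to 52.2 and 35.9 to 46 CPM and BMP2 12.8 to 24.7 and 3.38 to 14.6 CPM, each with overlap. For BMP2 the overlap rests on library 17, and the other 3 libraries of its set were at 3.38 to 4.88 CPM. ID2 went the other way, at 17.1 ± 0.884 against 122 ± 13.1 CPM (-2.60, SE 0.13). DKK1 had 0 counts in U2OS DMSO and 21 in HEK293T DMSO libraries. With U2OS set to a floor of 3 counts over the group, DKK1 was 6.76-fold lower there. That ratio leaves out counting error in the 21 counts. SMAD6, at 24.1 ± 3.63 against 18.9 ± 2.70 CPM, stood under the cutoff (0.57).

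Among the listed genes, 33 of 80 were higher in U2OS (41.2%) and 19 lower (23.8%). Of 9 secreted BMP antagonists tested, 8 were higher in U2OS, led by FST at 119 ± 7.66 against 4.36 ± 0.874 CPM (log2 fold change 4.99, adjusted p = 1.20e-23, edgeR quasi-likelihood test). Among the 8, the call of CHRD was lost without library 25, 30 or 32 (0.79 to 1.16). It was also lost with all 32 libraries in one fit and with library size alone. Of 7 BMP targets beyond the ID genes above, 6 were lower, HEY1 at 3.34 ± 0.702 against 166 ± 21.9 CPM (-5.39, adjusted p = 9.38e-24) and ID4 at 5.23 ± 2.10 against 91.2 ± 15 CPM (-3.93, adjusted p = 4.50e-19). Among the 6, the call of DLX3, on 1 and 11 counts, was lost with DESeq2 and without library 32 or 33. That of ATOH8, on 0 and 11 counts, was lost without library 22 or 25. Osteoblast genes were higher in 4 and lower in 1 of 7, with SPARC at 950 ± 89.6 against 6.88 ± 3.90 CPM and TNFRSF11B at 101 ± 21.1 against 0.354 ± 0.146 CPM. The Wnt feedback genes RNF43 (4.33, adjusted p = 3.67e-21) and NOTUM (3.66, adjusted p = 1.04e-15) were higher in U2OS.

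Set out by level, SOSTDC1 was highest in U2OS DMSO at 24.5 ± 3.62 CPM (mean ± SD, n = 4), followed by the odd libraries 1 to 7 at 15.6 ± 5.01 CPM and the even libraries 2 to 8 at 6.28 ± 2.22 CPM. The ranges of the first 2 overlapped, from 20.9 to 28.9 CPM and from 11.5 to 22.6 CPM. Next came the odd libraries 11 to 17 at 2.50 ± 0.487 CPM, HEK293T DMSO at 2.20 ± 0.937 CPM, the ATM inhibitor set at 1.60 ± 0.586 CPM and the even libraries 10 to 16 at 1.09 ± 0.529 CPM, each overlapping its neighbour in that order. U2OS CPT came last at 0.329 ± 0.283 CPM, on 0 to 2 counts a library and under the floor of 3 counts, and it overlapped the even libraries 10 to 16, with 0.693 CPM at its highest against 0.629 CPM at their lowest.

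Over all 32 libraries, the 5 genes whose log2 CPM followed SOSTDC1 most closely among 13600 candidates were the gap junction gene GJA1 (Pearson r = 0.93), the linker histone gene H1F0 (0.92), TSC22D1 (0.91), SOX5 (0.91) and ZMIZ1 (0.91). For ID1 they were FGD4 and CLCN4 (both 0.98), HIF1A, NMI and VASN (each 0.97). These values describe the ordering across libraries that share a line in blocks of 16 and carry no test.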

How the data were processed

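Counts of reads per gene were deposited by the authors for 32 libraries made with the QuantSeq 3′ mRNA method with UMIs, processed with the Lexogen QuantSeq FWD UMI pipeline on the BlueBee platform and not normalized. The aligner, genome build and annotation are not given in the sources used here. The table held 60107 genes, of which 56531 took a symbol from GENCODE 29. The 5 summary rows of the counting (reads on no feature were 9.39% to 39.9% of those counted and ambiguous reads 0.631% to 1.51%) and 92 spike-in rows were left out of library sizes and tests. CPM was computed as counts over the counts on genes of each library (1232674 to 6362433). Intervals and floors cover counting error only. No pair of libraries was identical.

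Each comparison used its own 8 libraries, and genes needed over 1 count in 2 or more of them, the filter of the study. The quasi-likelihood test of edgeR 4.0.16 (R 4.3.3) was applied after TMM scaling, where the study had used edgeR's likelihood ratio test. SE was computed as the absolute log2 fold change over the square root of the F statistic of that test. A gene was called when its difference lay beyond 1 on the log2 scale with a p under 0.05 after Benjamini-Hochberg adjustment over all genes tested. The 10 genes and the 9 lists (100 genes) were chosen with earlier results of these data known, and the adjusted p values make no allowance for that choice. From each list, up to 2 of the largest rises and falls past the threshold were named, and likeness was taken over log2 CPM with a prior count of 2. A further gene is not reported here. The fit was tested on simulated data. Results were recomputed with the likelihood ratio test, DESeq2 1.42.0, RLE normalization, other filters, a joint fit of all 32 libraries, calls without a fold cutoff, other controls and each library left out in turn. Scaling by library size alone was added after seeing the data.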

Additional observations from a re-analysis of the deposited data

Results flagged for a closer look

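Within sets of 4 libraries, 6 values of 78 tested lay far from the other 3 by Dixon's criterion for the gap to the nearest library over the range, where chance gives about 1 in 20. BMP2 was 12.5 CPM in library 14 (others 6.74 to 7.23) and 14.6 CPM in library 17 (others 3.38 to 4.88). BMP4 was 36 CPM in library 15 (others 47.6 to 49.0). ID1 was 8.91 CPM in library 21 (others 3.62 to 4.47), ID2 was 18.5 CPM in library 32 (others 16.6 to 16.9) and ID3 was 105 CPM in library 12 (others 85.4 to 85.8).

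In 3 genes every CPT library of U2OS cells lay under every DMSO library, while every even library of 10 to 17 lay over every odd one. For SMAD6 the latter was a near tie, at 24.383 CPM in library 12 and 24.380 CPM in library 17. The log2 fold changes were -1.68 and 0.97 for BMP4, -0.75 and 2.3 for ID1 and -1.15 and 0.69 for SMAD6, and the difference between the comparisons was not tested. Of libraries 10 to 17, all but library 17 contradict the line of their label, and no direction for a treatment is drawn from them.

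The difference between the comparison in libraries 10 to 17 and that of the ATM inhibitor passed its own test for DKK1 (2.32), ID1 (1.99), ID3 (1.09) and SMAD7 (1.2) on the log2 scale.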

How the results depend on the processing

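Every count of the 10 genes past the threshold stayed within 1.5 times its value under each alternative run, apart from the difference between the HEK293T-like comparisons, which passed for 2 to 5 genes on leaving out single libraries and for 2 without library 24. Without a cutoff on fold change, the listed genes past the threshold numbered 39 instead of 15 in U2OS CPT, 36 instead of 17 in libraries 10 to 17 and 17 instead of 11 in libraries 1 to 8. With DESeq2, the calls of BMP3, LGR5 and SFRP4 in U2OS CPT were lost. So were those of ACVR2B, FRZB, SPP1, PHEX and ALPL in libraries 10 to 17 and of GDF7, ATOH8 and INHBB in libraries 1 to 8. RLE normalization lost ACVR2B and INHBB there, and library size alone lost SFRP4, ACVR2B and SKIL. Between the DMSO-treated libraries of the 2 lines, DESeq2 lost DLX3, library size alone lost CHRD and AXIN2, and the joint fit lost CHRD. Directions turned only where log2 fold changes lay near 0 or where controls of another profile were used. With all 8 libraries labelled HEK293T DMSO as controls of the ATM inhibitor, of which libraries 3, 5 and 7 resemble U2OS, the values were 0.22 for DKK1, -0.84 for BMP2, -2.48 for BMP4, -3.32 for ID1 and -2.31 for RUNX2. BMP2 with the ATM inhibitor was -0.00018 without a filter, -0.0056 with all libraries in one fit and -0.053 with library size alone. ID2 in libraries 10 to 17 was 0.015 with edgeR's own filter. On leaving out single libraries, BMP2 ran from -0.19 to 0.060 in U2OS CPT, BMP4 from -0.059 to 0.15 in libraries 1 to 8, and with the ATM inhibitor BMP2 from -0.17 to 0.17, BMP4 from -0.021 to 0.26, DKK1 from -0.52 to 0.19, ID1 from -0.0068 to 0.56, ID3 from -0.21 to 0.087, RUNX2 from -0.20 to 1.28 and SMAD7 from -0.18 to 0.22. With library size alone, ID3 in U2OS CPT was -1.02 and passed the cutoff. BMP4 in libraries 10 to 17 passed it with RLE normalization (1.02), edgeR's own filter (1.04) and DESeq2 (1.02). No paired fit was run, since the labels give each library a number of its own and tie no 2 libraries together. Depth limits DKK1, RUNX2 and, in HEK293T-like libraries, SOSTDC1, at a few counts per library.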

Other observations

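The 2 HEK293T-like control sets were not at the same level in the ID genes. ID2 was 304 to 335 CPM in libraries 11, 13, 15 and 17 and 107 to 136 CPM in libraries 22 to 25, and ID3 was 35.9 to 46.0 CPM and 13.4 to 27.3 CPM in the same libraries. ID1 overlapped, at 3.71 to 6.21 CPM and 2.37 to 6.26 CPM. In the U2OS-like control sets, RUNX2 was 6.35 to 12 CPM in libraries 1, 3, 5 and 7 and 15.4 to 22 CPM in libraries 30 to 33, while BMP4 ran from 529 to 794 CPM and from 452 to 808 CPM. These sets were not compared by a test, and the cause was not tested.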
